A study of Mus musculus with 12 samples.

Results

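Aoah and 9 genes of lipopolysaccharide recognition and toll-like receptor signalling were followed over 12 mouse melanomas. These 10 genes were taken by symbol from a table of 32416 gene symbols, and all 10 were present. They are Aoah, the over-expressed lipase, then Tlr4, Ly96 and Cd14 of the lipopolysaccharide receptor, the receptors Tlr2, Tlr3, Tlr7 and Tlr13, and the adaptors Myd88 and Ticam1.

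The tumours grew under the skin of C57BL/6 mice from B16 melanoma lines, and bulk tumour polyA RNA was sequenced. The B16mhgp100 model gave 4 tumours with Aoah over-expression and 4 tumours with the Vector, all under anti-PD1, an antibody to the T cell checkpoint PD-1, from day 10. The B16F10 model gave 2 Aoah and 2 Vector tumours, all under anti-PD1 together with an antibody to the checkpoint CTLA-4, from day 6. Each antibody was given at 200 µg in 4 doses, with harvest 1 day after the final one, so every group carried checkpoint therapy. Model, antibodies and first day of treatment changed together and cannot be told apart. The labels name neither the promoter of the Aoah vector nor the age of the mice. They do not state that each tumour is from a mouse of its own, so the p-values cover only the spread between these samples.

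Lipopolysaccharide is the glycolipid of the outer membrane of Gram-negative bacteria. CD14 passes it to MD-2, the product of Ly96, which sits on TLR4, and TLR4 then signals through the adaptors MyD88 and TRIF to inflammatory and interferon genes. Acyloxyacyl hydrolase, the product of Aoah, is a lipase of macrophages and dendritic cells known for removing the secondary fatty acyl chains of lipopolysaccharide, which leaves it unable to trigger TLR4. Only mRNA levels were compared here. In a bulk tumour, fewer cells of a type and less RNA per cell cannot be told apart.

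Levels are given in TPM, a measure of transcript abundance that is scaled for gene length and library total and keeps no read depth, so the depth behind each value is unknown. The number of genes at 1 TPM or more ranged from 13775 to 14791 over the libraries. The library labelled B16mhgp100 Aoah 4 stood apart, with a median correlation of 0.791 with the other libraries across genes, where the other 11 had at least 0.909. Its 6 keratinocyte markers summed to 4408 TPM, against at most 27.5 TPM elsewhere, and its 6 muscle markers to 5499 TPM, against at most 758 TPM. Vector 2 of B16F10 had 10.4% of its TPM in mitochondrially encoded genes, against at most 6.38% elsewhere. In both libraries, the deviation of a gene from the other libraries fell with transcript length (Spearman rho across 12299 genes of -0.307 in Aoah 4 and -0.213 in that Vector 2), and it did so less steeply in the B16F10 Aoah tumours (-0.189 and -0.132). Melanocyte markers, 7 of 7 in the table, summed to at least 7802 TPM in every tumour.

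Aoah itself was high in the B16F10 Aoah tumours and in 3 of the 4 B16mhgp100 Aoah tumours. It stood at 17.9, 22.5, 13.96 and 3.91 TPM in B16mhgp100 Aoah tumours 1 to 4, against 7.58, 0.89, 2.43 and 1.57 TPM in B16mhgp100 Vector tumours 1 to 4. In B16F10 it stood at 21.8 and 23.7 TPM in Aoah tumours, against 1.49 and 0.75 TPM in Vector tumours. The B16F10 groups were far apart, while the B16mhgp100 groups overlapped, because Aoah 4 lay below Vector 1. The group means were 22.7 ± 1.4 TPM in B16F10 Aoah (SD, n = 2), 14.6 ± 7.91 TPM in B16mhgp100 Aoah (n = 4), 3.12 ± 3.04 TPM in B16mhgp100 Vector (n = 4) and 1.12 ± 0.523 TPM in B16F10 Vector (n = 2), and each group overlapped its neighbour in that order. Over the other 9 genes, neighbours in the order of group means overlapped too, apart from 3 cases in B16F10 Aoah tumours given below with Tlr13, Myd88 and Ticam1. The measured range was 31.6-fold from lowest to highest library, the widest of the 10 genes.

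Promoter windows ran from 250 bases before to 50 bases after the start of a gene. For the members, windows on 1 chromosome were left out, so a gene without a window here may still have one in RefSeq. Windows were taken from RefSeq (build GRCm38.p6) for 6 of the 10 genes, Aoah, Tlr2, Tlr3, Tlr13, Myd88 and Ticam1. They were searched on both strands for the core of the interferon-stimulated response element (GAAA, any 2 bases, then GAAA), for TTCNNNGAA, the interferon-gamma activated site, for GAGGAA, a core bound by the myeloid factor PU.1, and for a kappa B site (GGGAC followed directly by TTTCC). Aoah and Myd88 are shown because their windows hold the interferon response core, which 3.44% of all 32851 windows in the table hold. The Aoah window, chr13:20793863-20794162 on the plus strand, has 1 match at base 269, in capitals, read on the opposite strand. The Myd88 window, chr9:119339969-119340268 on the minus strand, has 1 match at base 211 that overlaps an interferon-gamma activated site at base 205, and both are in capitals as 1 run. Interferon-gamma activated sites are in 8.30% of all windows.
Aoah: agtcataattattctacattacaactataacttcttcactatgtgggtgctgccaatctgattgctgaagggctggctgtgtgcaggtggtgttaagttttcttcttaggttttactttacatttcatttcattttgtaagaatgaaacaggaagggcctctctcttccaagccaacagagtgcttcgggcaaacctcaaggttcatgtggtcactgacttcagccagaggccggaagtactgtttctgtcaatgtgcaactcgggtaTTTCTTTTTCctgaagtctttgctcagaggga
Myd88: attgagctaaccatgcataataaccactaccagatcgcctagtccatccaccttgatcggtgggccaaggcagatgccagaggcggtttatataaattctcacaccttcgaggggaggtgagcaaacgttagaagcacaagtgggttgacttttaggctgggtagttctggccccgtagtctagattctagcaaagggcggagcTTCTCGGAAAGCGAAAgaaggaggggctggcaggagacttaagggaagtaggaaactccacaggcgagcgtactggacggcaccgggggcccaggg
The windows of Tlr13 and Ticam1 each hold 1 PU.1 core, a motif of 28.3% of all windows, and those of Tlr2 and Tlr3 hold none of the 4 motifs. No window of the 6 holds the kappa B site, found in 0.155% of all. These matches describe letters only. The Aoah window is that of the gene in the genome and not of the vector.

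**Figure D1:**
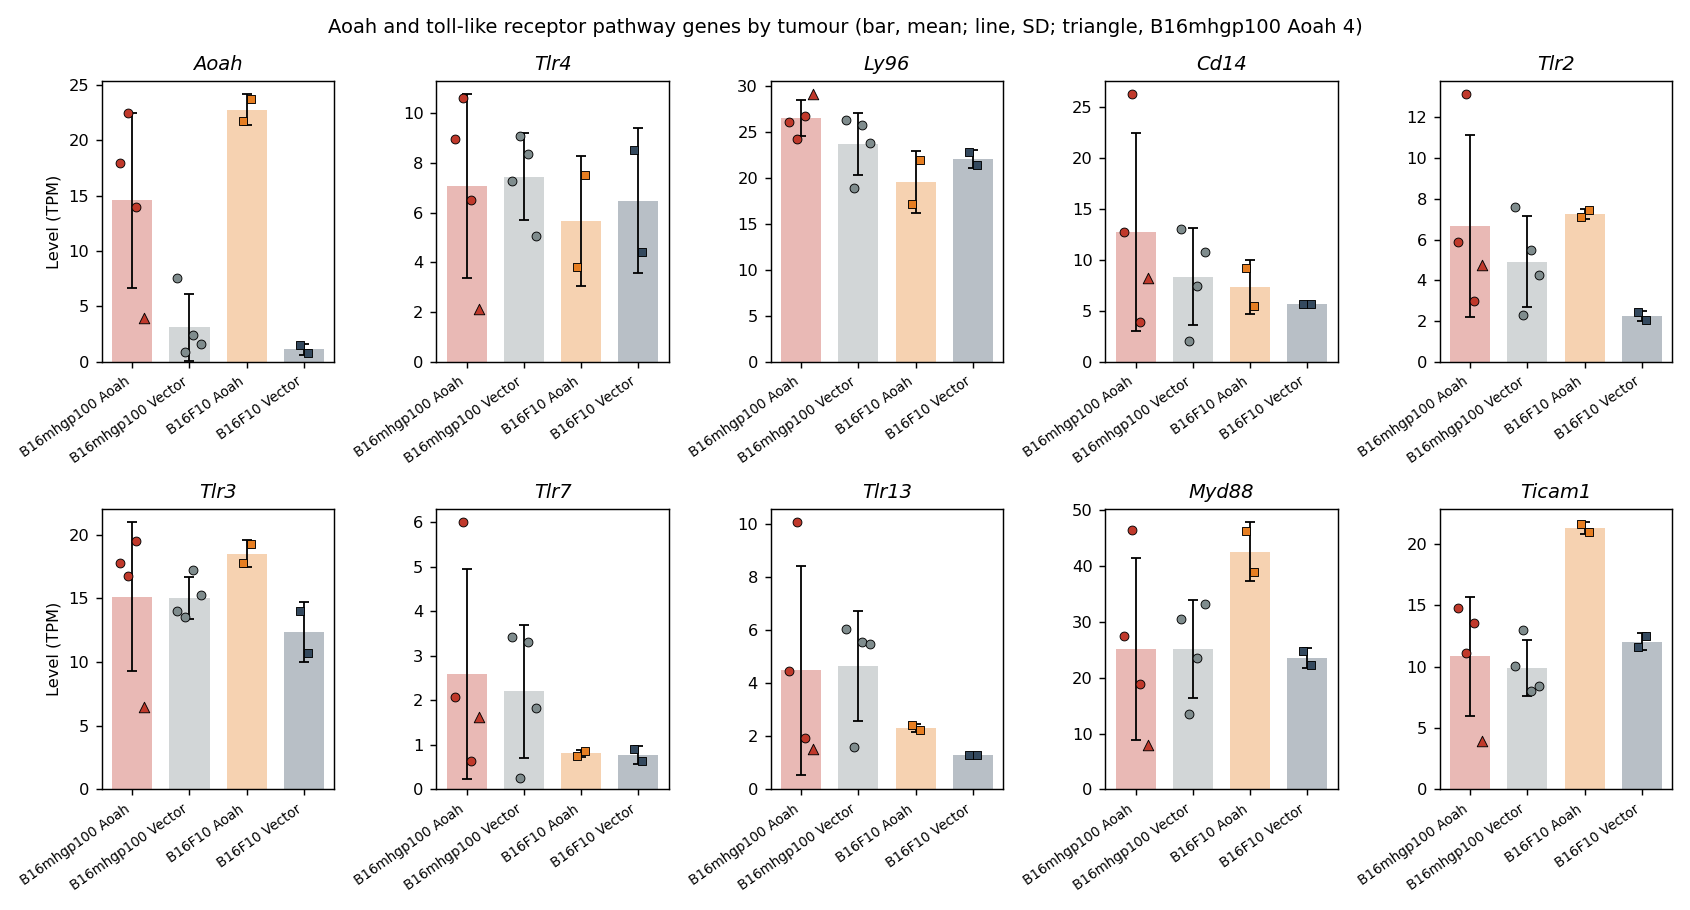
Level of each gene in TPM (vertical axes from 0, a separate scale for each gene) in the 4 groups, with 1 point per tumour, bars for the mean and lines for the SD. The triangle is B16mhgp100 Aoah 4, which has the lowest Tlr4, Tlr3, Myd88 and Ticam1 of all 12 tumours and the highest Ly96, and in B16F10 the Aoah points of Tlr2, Myd88 and Ticam1 lie above the Vector points.

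The receptor complex for lipopolysaccharide did not differ between Aoah and Vector tumours beyond the spread of replicates in either model. Tlr4, the signalling receptor, stood at 8.97, 10.6, 6.52 and 2.11 TPM in B16mhgp100 Aoah tumours, against 7.27, 9.08, 8.37 and 5.07 TPM in B16mhgp100 Vector tumours. In B16F10 it stood at 3.81 and 7.5 TPM in Aoah tumours, against 8.53 and 4.41 TPM in Vector tumours. Each group thus held a high and a low tumour, and the groups overlapped. The log2 fold change on the TPM + 1 scale, Aoah over Vector, was -0.20 (95% interval -1.13 to 0.73) in B16mhgp100 and -0.17 (-1.25 to 0.91) in B16F10. Without Aoah 4 it was 0.20 in B16mhgp100, and in B16F10 it was 0.24 without Aoah 1 or without Vector 1, so its direction rests on single libraries.

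Ly96, which encodes the lipid-binding partner of TLR4, was the steadiest of the 10 genes, with a 1.70-fold range over all tumours. It stood at 26.0, 24.3, 26.7 and 29.1 TPM in B16mhgp100 Aoah tumours, against 26.3, 18.9, 25.8 and 23.8 TPM in B16mhgp100 Vector tumours, and at 17.1 and 21.9 TPM in B16F10 Aoah tumours, against 22.8 and 21.3 TPM in B16F10 Vector tumours. The groups overlapped in both models. Its log2 fold change was 0.16 (95% interval -0.24 to 0.57) in B16mhgp100 and -0.18 (-0.74 to 0.39) in B16F10. Ly96 also has the shortest transcripts of the 10 genes, with a median of 530 bases, at percentile 2.40 of all genes with a mean of at least 1 TPM and a known length. Ly96 was highest in Aoah 4 of B16mhgp100, where the rho of deviation with transcript length was -0.307. It was lowest in B16F10 Aoah 1 (rho -0.189), and it stood at 21.3 TPM in B16F10 Vector 2 (rho -0.213). The part of transcript length in its level was not tested.

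Cd14, the co-receptor that hands lipopolysaccharide to TLR4 and MD-2, varied 12.6-fold over the tumours. It stood at 12.7, 26.3, 3.89 and 8.19 TPM in B16mhgp100 Aoah tumours, against 13.1, 2.08, 7.42 and 10.8 TPM in B16mhgp100 Vector tumours. In B16F10 it stood at 9.19 and 5.48 TPM in Aoah tumours, against 5.64 and 5.67 TPM in Vector tumours. Aoah 2 of B16mhgp100 was the highest and Vector 2 of that model the lowest, within groups that overlapped. The log2 fold change was 0.49 (95% interval -0.90 to 1.87) in B16mhgp100 and 0.29 (-0.50 to 1.08) in B16F10, and it was -0.04 in B16F10 without Aoah 1.

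Tlr2, the receptor for bacterial lipoproteins, was higher in both B16F10 Aoah tumours than in either Vector tumour. It stood at 7.10 and 7.44 TPM in B16F10 Aoah tumours, against 2.43 and 2.07 TPM in B16F10 Vector tumours. In B16mhgp100 it stood at 5.87, 13.1, 2.97 and 4.76 TPM in Aoah tumours, against 7.62, 2.28, 5.51 and 4.28 TPM in Vector tumours, with groups that overlapped. Its log2 fold change in B16F10 was 1.35 (SE 0.26), second to that of Aoah among the 10 genes, and did not pass in limma (adjusted p = 0.104). In B16mhgp100 it was 0.30 (95% interval -0.68 to 1.28), and -0.05 without Aoah 2.

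The receptors of nucleic acids fell into different ranges of level. Tlr3, which binds double-stranded RNA in endosomes, stood at 17.8, 16.8, 19.5 and 6.49 TPM in B16mhgp100 Aoah tumours, against 14.03, 13.5, 17.2 and 15.3 TPM in B16mhgp100 Vector tumours. In B16F10 it stood at 17.8 and 19.3 TPM in Aoah tumours, against 14.03 and 10.7 TPM in Vector tumours. The B16F10 groups did not overlap. In B16mhgp100, 2 of the 3 Aoah tumours other than Aoah 4 lay above every Vector tumour, and Aoah 4 lay below every Vector tumour. The log2 fold change was 0.56 (95% interval -0.05 to 1.17) in B16F10, and -0.09 in B16mhgp100 (-0.82 to 0.65), or 0.25 without Aoah 4 and 0.10 with median-of-ratios scaling.

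Tlr7, a receptor of single-stranded RNA, was the lowest of the 10 genes. It stood at 2.08, 6.00, 0.64 and 1.62 TPM in B16mhgp100 Aoah tumours, against 3.42, 0.25, 3.31 and 1.82 TPM in B16mhgp100 Vector tumours, and at 0.75 and 0.87 TPM in B16F10 Aoah tumours, against 0.91 and 0.63 TPM in B16F10 Vector tumours. The groups overlapped in both models, and in B16F10 the gene did not reach the 1 TPM needed for the fit. The log2 fold change in B16mhgp100 was 0.12 (95% interval -1.08 to 1.31), and -0.28 without Aoah 2 or without Vector 2.

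Tlr13, a mouse receptor of bacterial ribosomal RNA, stood at 4.46, 10.1, 1.94 and 1.51 TPM in B16mhgp100 Aoah tumours, against 6.02, 1.58, 5.55 and 5.47 TPM in B16mhgp100 Vector tumours. In B16F10 it stood at 2.42 and 2.22 TPM in Aoah tumours, against 1.31 and 1.28 TPM in Vector tumours, with no overlap, and the B16F10 Vector mean of 1.30 ± 0.0212 TPM (SD, n = 2) was the lowest of the 4 groups. Vector 2 of B16mhgp100 was low beside the other Vector tumours of that model. The log2 fold change was 0.53 (95% interval -0.08 to 1.15) in B16F10, and -0.20 in B16mhgp100 (-1.37 to 0.98), or 0.02 without Aoah 3 and 0.09 without Aoah 4.

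Both adaptors were higher in the B16F10 Aoah tumours. Myd88, the adaptor of every toll-like receptor here except TLR3, stood at 46.3 and 38.8 TPM in B16F10 Aoah tumours, against 24.8 and 22.2 TPM in B16F10 Vector tumours. Ticam1, which encodes TRIF, the adaptor of TLR3 and of endosomal TLR4, stood at 21.6 and 21.0 TPM in B16F10 Aoah tumours, against 11.6 and 12.5 TPM in B16F10 Vector tumours. The groups did not overlap for either gene. For both, the B16F10 Aoah tumours had the highest mean of the 4 groups, 42.6 ± 5.27 TPM for Myd88 and 21.3 ± 0.481 TPM for Ticam1 (SD, n = 2). They did not overlap the group with the next highest mean, B16mhgp100 Vector for Myd88 and B16F10 Vector for Ticam1. For Myd88 they did overlap the B16mhgp100 Aoah tumours, of which Aoah 2, at 46.5 TPM, was the highest of all tumours. Their log2 fold changes in B16F10 were 0.83 (SE 0.20) for Myd88 and 0.77 (SE 0.21) for Ticam1, and neither passed in limma (adjusted p = 0.141 for Myd88 and 0.164 for Ticam1).

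In B16mhgp100 the adaptors overlapped between groups. Myd88 stood at 27.4, 46.5, 18.8 and 8.02 TPM in Aoah tumours, against 30.5, 13.6, 23.6 and 33.2 TPM in Vector tumours. Ticam1 stood at 14.8, 11.1, 13.5 and 3.93 TPM in Aoah tumours, against 10.1, 13, 8.00 and 8.44 TPM in Vector tumours. Aoah 4 was the lowest tumour for both. The log2 fold changes were -0.17 (95% interval -1.30 to 0.96) for Myd88 and 0.01 (-0.84 to 0.87) for Ticam1, and without Aoah 4 they were 0.26 for Myd88 and 0.39 for Ticam1. Median-of-ratios scaling also turned that of Myd88, to 0.02. That of Ticam1 turned negative when Aoah 1 (-0.17), Aoah 2 (-0.04), Aoah 3 (-0.13), Vector 3 (-0.07) or Vector 4 (-0.05) was left out.

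Tested across all genes, Aoah was the single member called in B16F10, and no member was called in B16mhgp100. The call of Aoah did not hold with no filter on low values (limma adjusted p = 0.237), where no gene at all was called, nor in a fit of all 12 libraries (limma adjusted p = 0.0958). In B16F10, Aoah had a log2 fold change of 3.51 (SE 0.29, limma adjusted p = 0.0286), and 1 of the 9 members tested was called, where 50 of 14533 genes, 0.344%, were. At an unadjusted p below 0.05 there were 4 members, Aoah, Tlr2, Myd88 and Ticam1, and 18.2% of all genes. The median log2 fold change was 0.56 over the 9 members and 0.02 over all genes. Without Vector 1 limma called 5 members, Aoah, Tlr2, Tlr3, Myd88 and Ticam1 (adjusted p = 0.0106 for Tlr2), and without Vector 2 it called 4 of them, all but Tlr3. These fits called far more of all genes as well, 22.1% without Vector 1 and 23% without Vector 2. They leave a lone Vector tumour, which is assumed to vary like the Aoah tumours. An exact permutation test of 2 against 2 tumours cannot go below p = 0.333.

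In the authors' deposited table for B16F10, made with DESeq2 per the submitters' processing notes, 4 of the 10 members passed an adjusted p of 0.05, as did 8.53% of its genes. In the authors' deposited table the log2 fold changes of these members were 4.36 for Aoah (adjusted p = 5.52e-29), 1.68 for Tlr2 (0.000506), 0.85 for Myd88 (0.0320) and 0.80 for Ticam1 (0.0461). Tlr3 had 0.58 in the authors' deposited table and did not pass (adjusted p = 0.185). The direction of its folds is not named there, and its signs were those of limma for each of the 9 members tested in B16F10. By ranges, 6 of the 10 members were higher in both B16F10 Aoah tumours than in both Vector tumours, Aoah, Tlr2, Tlr3, Tlr13, Myd88 and Ticam1, where 28% of all genes tested were.

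Summed markers of several cell types differed between these B16F10 groups without overlap. The 16 macrophage and monocyte markers, all in the table and none at 0 in any tumour, summed to between 1161 and 1235 TPM in B16F10 Aoah tumours, against 692 to 760 TPM in B16F10 Vector tumours. The 8 T cell markers, all in the table and none at 0, summed to between 84.6 and 95.2 TPM in B16F10 Aoah tumours, against 6.84 to 17.2 TPM in B16F10 Vector tumours. The 6 natural killer cell markers summed to between 7.51 and 11.4 TPM in Aoah tumours, against 1.27 to 3.33 TPM in Vector tumours. Klrd1 (2.39 and 5.58 TPM, against 0.75 and 0.47 TPM) and Klrk1 (2.92 and 4.21 TPM, against 1.45 and 0.43 TPM) were the largest parts. Ncr1, Klrb1c, Eomes and Klre1 stayed below 1 TPM in these tumours, and Klre1 overlapped. In each Vector tumour, 1 of the 6 was at 0. The 10 dendritic cell markers summed to between 48.0 and 54.4 TPM in Aoah tumours, against 30.6 to 44.1 TPM in Vector tumours. Naaa was the largest part of the dendritic sum, at 31.1 and 37.7 TPM in Aoah tumours, against 25.2 and 15.4 TPM in Vector tumours. Of the other dendritic markers, Xcr1, Clec9a and Itgae were higher in Aoah tumours, Batf3 and Cd209a were lower, and the rest overlapped. The melanocyte sum was higher too, at 28245 to 29292 TPM in Aoah tumours, against 18545 to 21778 TPM in Vector tumours. Pmel was its largest part, at 15881 and 14592 TPM in Aoah tumours, against 7197 and 8252 TPM in Vector tumours. Tyr, Tyrp1 and Sox10 were also higher in Aoah tumours, while Mlana, Dct and Mitf overlapped. Lower in Aoah tumours were the 6 fibroblast markers, at 126 to 197 TPM, against 335 to 429 TPM in Vector tumours, and the 5 endothelial markers, at 20.2 to 24.9 TPM, against 51.5 to 72.9 TPM. Neutrophil and B cell markers overlapped. The part of these cell types in the levels of Tlr2, Myd88 and Ticam1 was not tested. Cd14 and Tlr7 overlapped between the same groups.

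In B16mhgp100, Aoah had a log2 fold change of 1.96 (SE 0.59, limma adjusted p = 0.694). Among 10 members, limma gave Aoah alone an unadjusted p below 0.05, as it did 2.46% of all genes. The exact 2-sided permutation test over 70 arrangements gave p = 0.0571 for Aoah, of which the smallest possible is 0.0286. No gene passed in limma, 0 of 14228 (0%), and 350 had an unadjusted p below 0.05. All 10 members overlapped between the groups, where 0.731% of genes lay higher in every Aoah tumour. In the authors' deposited table for this model, 3 genes passed, 0.0146%, and no member did, with Aoah at 2.33 (adjusted p = 0.183). The authors' deposited table for this model gave small positive log2 fold changes of 0.0116 for Tlr4, 0.13 for Tlr3, 0.0526 for Tlr13 and 0.0946 for Myd88, where limma gave negative ones. The median log2 fold change was 0.07 over the members and -0.20 over all genes, and median-of-ratios scaling moves the median of all genes to -0.02 and turns the fold changes of Tlr3 and Myd88 to 0.10 and 0.02.

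**Figure D2:**
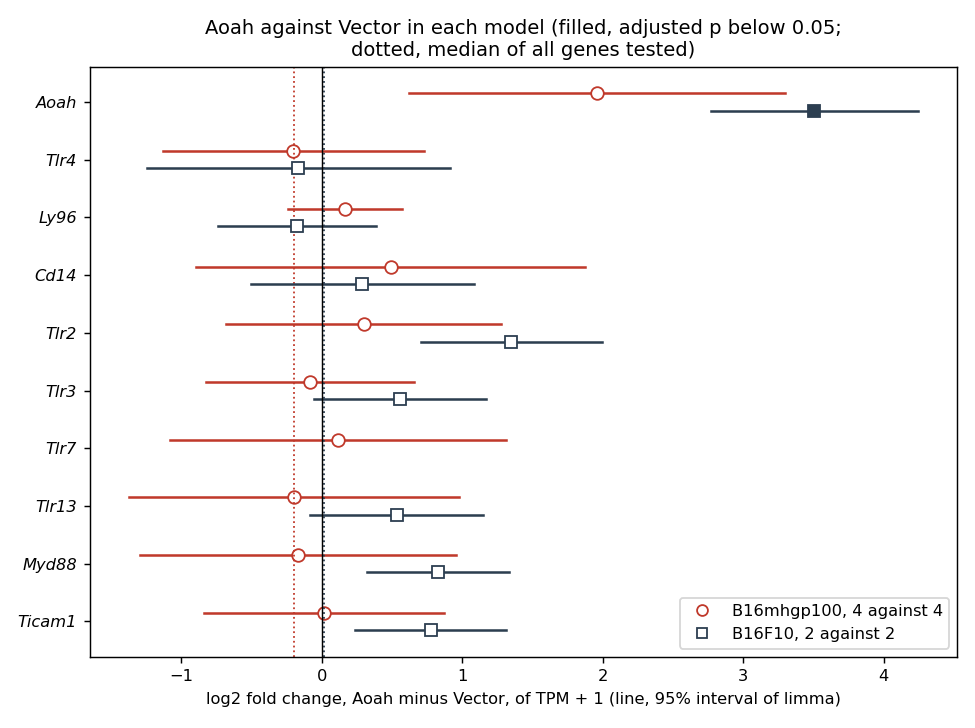
Log2 fold change of each gene, Aoah over Vector tumours, on the TPM + 1 scale (horizontal axis), in B16mhgp100 (circles) and B16F10 (squares), with the 95% interval of limma as lines and the median of all genes tested as dotted lines. Aoah in B16F10, at 3.51, is the single filled point, and the B16F10 intervals of Tlr2, Myd88 and Ticam1 lie above 0 while all B16mhgp100 intervals except that of Aoah cross 0.

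An interaction term over all 12 libraries tested whether the Aoah effect differed, B16mhgp100 minus B16F10. It was -1.55 (SE 0.93) for Aoah, -1.05 (SE 0.67) for Tlr2, -0.997 (SE 0.77) for Myd88 and -0.76 (SE 0.58) for Ticam1. No member was called in limma, where 5 of 16556 genes (0.0302%) were, and no member had an unadjusted p below 0.05, as 5.65% of genes had. The smallest adjusted p among members was 0.849. The Aoah effects on Tlr2, Myd88 and Ticam1 are thus not shown to differ between the models.

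Averaged over both models, Aoah had a log2 fold change of 2.73 (SE 0.46, limma adjusted p = 0.0514), with an exact permutation p of 0.00952 over 420 arrangements within models. No member was called, where 28 genes (0.169%) were. Tlr2 followed at 0.82 (SE 0.34, limma adjusted p = 0.448; exact permutation p = 0.0952), and with Aoah made 2 members at an unadjusted p below 0.05, as 9.85% of genes had. The mean effects were 0.24 for Tlr3, 0.33 for Myd88 and 0.39 for Ticam1. Without Aoah 4 of B16mhgp100, limma called Aoah at 2.97 (adjusted p = 0.00503) and Ticam1 at 0.58 (adjusted p = 0.0438), among 4.35% of all genes, and without Vector 1 of that model Aoah at 2.95 (adjusted p = 0.0300). Without both Aoah 4 and Vector 2 of B16F10, a choice made after seeing the data, Aoah and Ticam1 were called among 14% of all genes. With all tumours, median-of-ratios scaling and array weights also called Aoah in limma (adjusted p = 0.0122 and 0.00291).

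Each gene was next set against Aoah across the 12 tumours, as log2(TPM + 1). Tlr2 followed Aoah most closely, with Pearson r = 0.75 (permutation p = 0.00658, adjusted over 9 relations 0.0592) and Spearman rho = 0.846 (adjusted p = 0.00855). The correlation was 0.676 without the 2 tumours farthest from the median of Aoah (adjusted permutation p = 0.302), and 0.862 without Aoah 3 of B16mhgp100 (adjusted permutation p = 0.00423). For the other genes r was 0.145 for Tlr4, 0.0555 for Ly96, 0.457 for Cd14, 0.522 for Tlr3, 0.288 for Tlr7, 0.357 for Tlr13, 0.524 for Myd88 and 0.477 for Ticam1. None of these passed, by either coefficient (adjusted permutation p from 0.235 for r and from 0.0560 for rho). Tlr3 passed without Aoah 4, at r = 0.775 (adjusted permutation p = 0.0436). These values mix the difference between groups with the variation inside them.

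Within the 8 tumours of B16mhgp100, no relation with Aoah passed. The r values were 0.291 for Tlr4, 0.473 for Ly96, 0.570 for Cd14, 0.597 for Tlr2, 0.350 for Tlr3, 0.449 for Tlr7, 0.375 for Tlr13, 0.433 for Myd88 and 0.378 for Ticam1 (smallest adjusted exact permutation p = 0.486 for r and 0.368 for rho). Without Aoah 3, which had high Aoah but low Cd14 and Tlr2, r was 0.841 for Tlr2 and 0.816 for Cd14 (adjusted exact permutation p = 0.0455 each). Without the 2 tumours farthest from the median of Aoah, r was -0.112 for Cd14, -0.0198 for Tlr2, -0.341 for Tlr7 and -0.254 for Tlr13. B16F10 has too few tumours for a value of its own. With each group set to its own mean, r ran from 0.178 for Ly96 to 0.799 for Myd88, with 0.726 for Tlr13, and none passed (smallest adjusted exact permutation p = 0.182 for r and 0.142 for rho). Myd88 passed without Vector 4 of B16mhgp100, at r = 0.904 (adjusted exact permutation p = 0.0313).

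**Figure D3:**
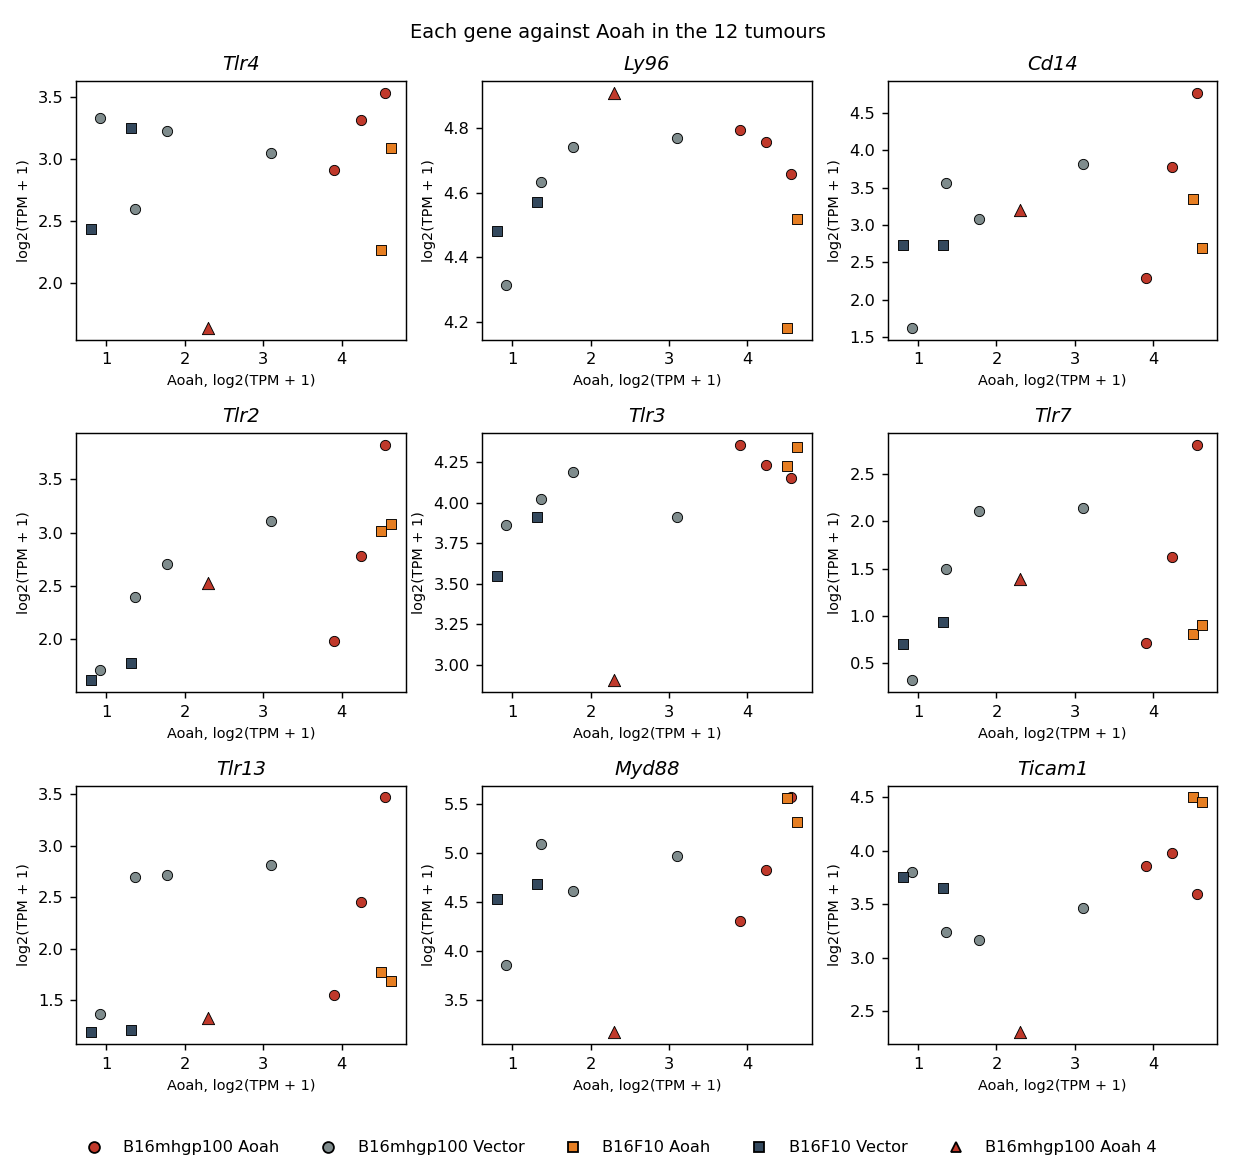
Each gene (vertical axes, log2 of TPM + 1, not from 0) against Aoah (horizontal axes, same scale) in the 12 tumours, with 1 point per tumour. Tlr2 climbs with Aoah over most tumours (r = 0.75), while Tlr4 (r = 0.145) and Ly96 (r = 0.0555) do not, and the triangle, B16mhgp100 Aoah 4, lies far below the rest for Tlr3, Myd88 and Ticam1.

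The members also followed the macrophage markers of the tumours to different degrees. The macrophage score is the mean log2(TPM + 1) of 16 macrophage and monocyte markers, such as Csf1r, Adgre1 and C1qa, none of them a member. Fibroblast markers ran alongside it in B16mhgp100, summing to between 92.7 and 2090 TPM in Aoah tumours, against 115 to 837 TPM in Vector tumours, and both sums were highest in Aoah 2 and lowest in Aoah 3 and Vector 2. In B16F10 the 2 sums went opposite ways between the groups. The part of fibroblasts in these relations was not tested. Across 12 tumours the macrophage score ran with Cd14 (r = 0.914, adjusted permutation p = 0.0011), Tlr7 (r = 0.852, 0.0015), Tlr2 (r = 0.848, 0.0015) and Tlr13 (r = 0.694, 0.0284). Spearman's rho was 0.832 for Cd14, 0.776 for Tlr7, 0.853 for Tlr2 and 0.608 for Tlr13, of which that for Tlr13 did not pass (adjusted permutation p = 0.0980). The score did not run with Tlr4 (r = 0.0769), Tlr3 (r = -0.0827) or Ticam1 (r = -0.220), nor past the threshold with Ly96 (r = 0.319), Myd88 (r = 0.399) or Aoah (r = 0.452). These p-values were adjusted over 10 relations. Without the 2 tumours farthest from the median score, r was 0.850 for Cd14, 0.753 for Tlr7 and 0.764 for Tlr2, and Tlr13, at 0.505, no longer passed. Tlr13 also lost its call without Aoah 2 of B16mhgp100, at r = 0.509, and without Vector 1 (0.655) or Vector 2 (0.666) of that model or Vector 2 of B16F10 (0.676). Without Aoah 4, Myd88 passed at r = 0.756 (adjusted permutation p = 0.0139), and without Aoah 3, Aoah passed at r = 0.662 (adjusted permutation p = 0.0452).

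Within the 8 B16mhgp100 tumours the r with the macrophage score was 0.954 for Tlr2, 0.928 for Cd14, 0.902 for Tlr7 and 0.713 for Tlr13, and the first 3 of these passed (adjusted exact permutation p = 0.00422 for Tlr2, 0.00781 for Cd14 and 0.0104 for Tlr7). By rho, Tlr2 alone passed (rho = 0.905, adjusted exact permutation p = 0.0456). Without the 2 tumours farthest from the median score, r was 0.932 for Tlr2, 0.871 for Cd14 and 0.797 for Tlr7, and none passed. Without Aoah 4, Tlr13 was at 0.928 and 5 members passed, and without Aoah 2 or without Vector 2 only Tlr2 did. With each group set to its own mean, r was 0.951 for Tlr2, 0.913 for Tlr7, 0.906 for Cd14 and 0.772 for Tlr13, and the first 3 passed (adjusted exact permutation p = 0.0434 each), but none by rho (smallest 0.167). Without Aoah 1 of B16mhgp100 or any 1 Vector tumour of that model, 0 members passed, with r for Tlr2 still 0.938 or more. Without either Vector tumour of B16F10, r for Tlr2 was 0.951, and the lone Vector tumour left adds nothing to r once set to its own mean. Each tumour left out also lowers the number of permutations within groups, 2304 with all tumours, which raises the smallest p possible. Without Aoah 4, 5 members passed, and without the 2 farthest tumours none did, with r of 0.952 for Tlr2. In the 6 Vector tumours alone, a set chosen after seeing the data, Aoah followed the score as well (r = 0.930, rho = 0.943, adjusted exact permutation p = 0.0278), beside Ly96 (r = 0.908), Tlr7 (r = 0.868) and Tlr2 (r = 0.861). The r of Aoah did not pass without Vector 1 (0.777), Vector 3 (0.929) or Vector 4 (0.938) of B16mhgp100 or Vector 1 of B16F10 (0.934), nor without the 2 farthest tumours (0.982 over 4 tumours). Ly96 and Tlr7 lost their calls when any 1 of the 6 tumours was left out, with r of Ly96 from 0.824 to 0.970 and of Tlr7 from 0.775 to 0.962, and Ly96 did not pass with median-of-ratios scaling (r = 0.743). Tlr2 lost its call without any 1 of the same 4 tumours as Aoah, at the lowest with r = 0.690 without Vector 1 of B16mhgp100. With fewer tumours the exact test has fewer pairings, which raises the smallest p it can give. These losses thus do not show by themselves that r rests on a single tumour.

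**Figure D4:**
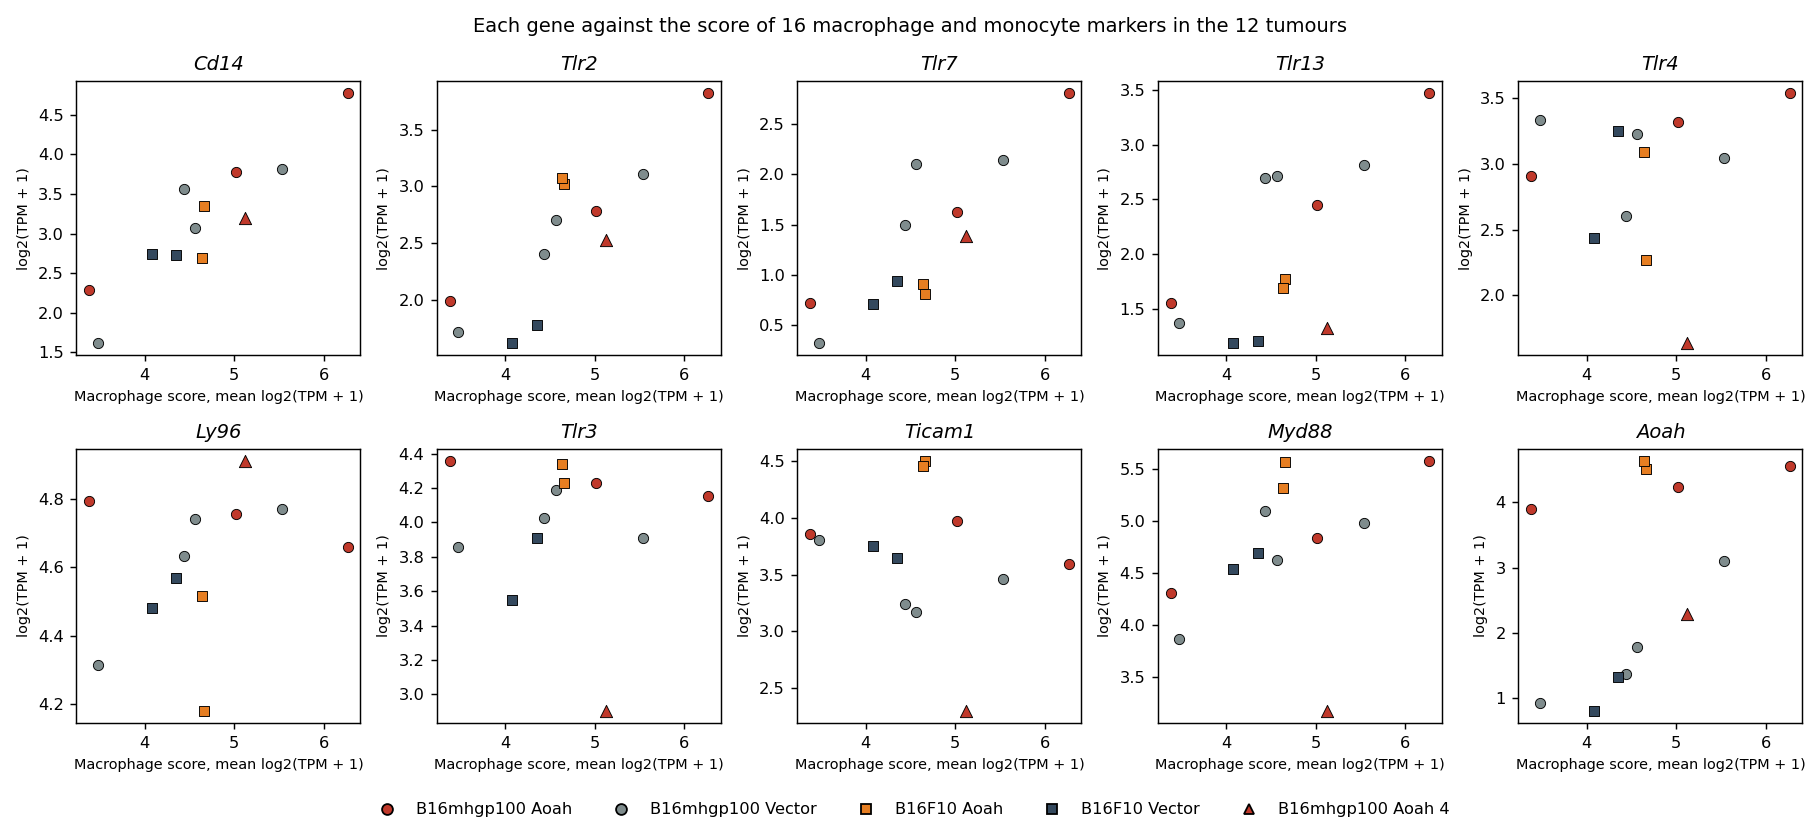
Each gene (vertical axes, log2 of TPM + 1, not from 0) against the macrophage score (horizontal axes, mean log2 of TPM + 1 over 16 markers) in the 12 tumours. Cd14, Tlr2 and Tlr7 climb with the score (r = 0.914, 0.848 and 0.852), Tlr3 and Ticam1 do not, and for Aoah the Vector points climb while most Aoah points sit high at any score.

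Correlations among the members are given as a description. Cd14, Tlr2, Tlr7 and Tlr13 ran together, with r from 0.75 for Tlr2 and Tlr7 to 0.896 for Tlr7 and Tlr13 over 12 tumours. Tlr3 was at 0.730 with Ticam1, 0.723 with Myd88 and 0.666 with Tlr4, whereas Tlr4 and Ticam1 were at 0.385. Within groups the pair of Tlr4 and Ticam1 was at 0.730 and that of Tlr2 and Tlr7 at 0.976. Myd88 was at 0.638 with Ticam1, 0.592 with Tlr2 and 0.553 with Tlr13. Ly96 and Ticam1 ran opposite, at -0.675. All points share the libraries, among them Aoah 4, in which Tlr3, Tlr4, Ticam1 and Myd88 were each at their lowest.

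**Figure D5:**
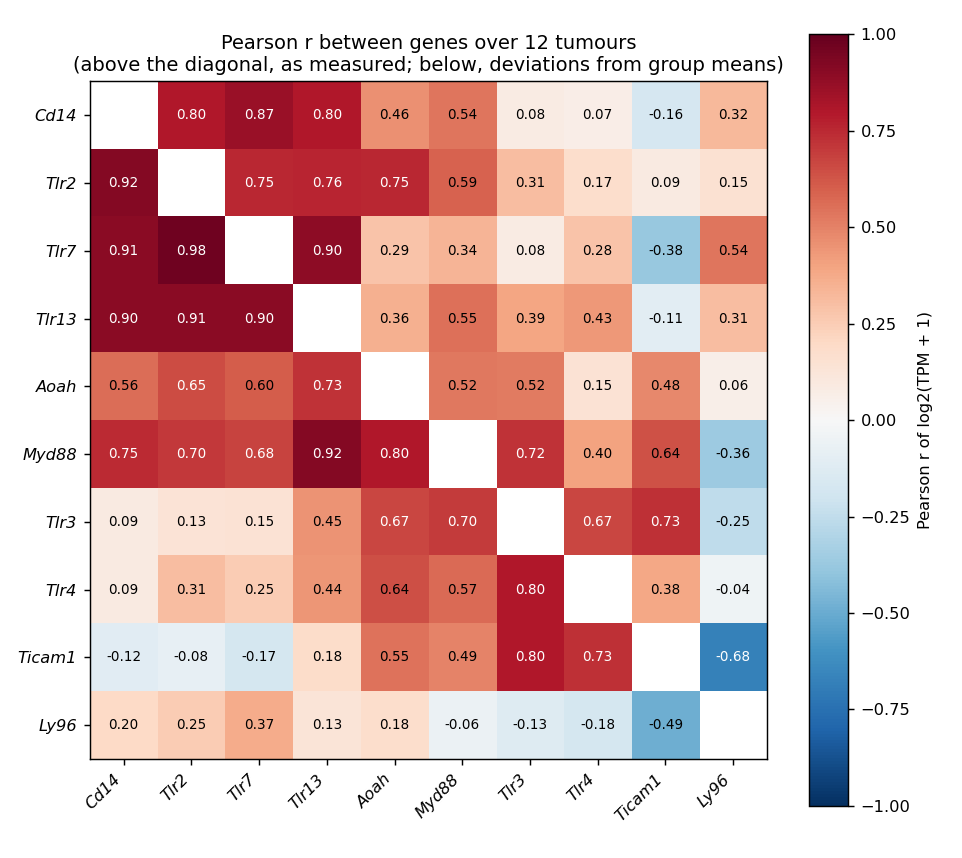
Pearson r of log2(TPM + 1) between each pair of the 10 genes over 12 tumours, with red for positive and blue for negative values; above the diagonal as measured, below it after each group was set to its own mean. The block of Cd14, Tlr2, Tlr7 and Tlr13 at the upper left is at 0.75 or more, and Ly96 with Ticam1 is at -0.675.

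The genes whose pattern over the 12 tumours was most like a member were sought among 11797 genes. Closest to Aoah were Cd74 (r = 0.907), the class II invariant chain, Uba7 (r = 0.901), the activating enzyme of the ubiquitin-like modifier ISG15, Prf1 (r = 0.898) and Gzmb (r = 0.893), which encode perforin and granzyme B of cytotoxic lymphocytes, and Gbp8 (r = 0.891), a guanylate-binding protein. Prf1 stood at 3.96, 3.79, 4.23 and 1.35 TPM in B16mhgp100 Aoah tumours, against 1.63, 1.19, 2.05 and 1.27 TPM in B16mhgp100 Vector tumours, and at 6.75 and 9.84 TPM in B16F10 Aoah tumours, against 0.87 and 1.01 TPM in B16F10 Vector tumours. Aoah 4 was thus low in Prf1 as it was in Aoah. These likenesses also mix the difference between groups with the variation inside them.

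Closest to Tlr4 were Nek7 (r = 0.958), a kinase known as a partner of the NLRP3 inflammasome, Zfp111 (r = 0.935), Pot1a (r = 0.934), a telomere-binding protein, Ddx31 (r = 0.932), an RNA helicase, and Nup153 (r = 0.931), a nuclear pore protein. Closest to Tlr3 were Pml (r = 0.975), the organiser of PML nuclear bodies, Usp25 (r = 0.971), a deubiquitinase, Pias3 (r = 0.968), an inhibitor of STAT3, Zfp710 (r = 0.965) and Tvp23a (r = 0.965). All 10 of these genes were at their lowest of the 12 tumours in Aoah 4, as Tlr4 and Tlr3 were, so these likenesses share that library.

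Other genes of the pathway were counted in 5 lists. In B16F10 the targets of the response stood highest, with 1 of 15 tested genes called in limma, where 0.344% of all genes were. Of the 15, 11 had an unadjusted p below 0.05, as 18.2% of all genes had. Their median log2 fold change was 1.15, against 0.02 over all genes. Ccl5, a chemokine for T cells, stood at 69.3 and 72.8 TPM in Aoah tumours, against 9.92 and 6.89 TPM in Vector tumours, a log2 fold change of 2.96 (SE 0.24, limma adjusted p = 0.0286). Ccl4, a related chemokine, had a log2 fold change of 2.23 (limma adjusted p = 0.0558), and Nos2, the inducible nitric oxide synthase of activated macrophages, had 2.52 (limma adjusted p = 0.0663). Nos2 stood at 14.3 and 19.1 TPM in Aoah tumours, against 3.04 and 1.32 TPM in Vector tumours. Of the 15 targets, 14 had a log2 fold change above 0. Cxcl10, of the same list, overlapped, at 80.6 and 79.4 TPM in Aoah tumours, against 93.4 and 74.1 TPM in Vector tumours. The T cell marker sum also differed between these groups, at 84.6 to 95.2 TPM, against 6.84 to 17.2 TPM. The part of cell types in the levels of the genes of these 5 lists was not tested.

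Of 7 further toll-like receptors and chaperones tested in B16F10, none was called and 5 had an unadjusted p below 0.05, as 18.2% of all genes had. Their median was 0.96. Unc93b1, which carries nucleic acid receptors to endosomes, stood at 87.4 and 78.7 TPM in Aoah tumours, against 39.9 and 36.8 TPM in Vector tumours, a log2 fold change of 1.09 (limma adjusted p = 0.0739). Tlr12, a mouse receptor of parasite profilin, had a log2 fold change of 1.43 and Tlr9, a receptor of DNA, one of 1.34 (limma adjusted p = 0.0976 for Tlr12 and 0.102 for Tlr9). Both were low, with at most 5.16 TPM in B16F10.

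Of 11 inhibitors, none was called in B16F10 and 4 had an unadjusted p below 0.05, as 18.2% of all genes had. Their median was 0.46. Socs1, a feedback inhibitor of cytokine signalling, stood at 13.1 and 14.1 TPM in Aoah tumours, against 2.69 and 2.05 TPM in Vector tumours, a log2 fold change of 2.12 (limma adjusted p = 0.0585). Tnip1, which restrains NF-kappa B, had 0.88 and Nfkbia, its cytoplasmic inhibitor, 0.73. Of 21 adaptors, kinases and transcription factors, none was called and 4 had an unadjusted p below 0.05, a share near the 18.2% of all genes, with a median of 0.15. Irf7, the interferon regulatory factor downstream of Tlr7 and Tlr9, had a log2 fold change of 1.74 (limma adjusted p = 0.0616), Irf5 had 0.85 and Irak2 had 0.74. Of 5 other genes of lipopolysaccharide recognition tested, none was called, with Itgb2, an integrin chain, at 0.88, Lbp, the serum binding protein, at -0.57 and Casp4, the cytoplasmic sensor known as caspase-11 in mice, at -0.41.

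In B16mhgp100 no gene of the 5 lists passed in limma, while 1 of 11 inhibitors and 3 of 16 response targets had an unadjusted p below 0.05, as 2.46% of all genes had. The response targets had a median log2 fold change of 0.76 over 16 genes, against -0.20 over all genes. Ccl4 had 1.20, Ptgs2, the inducible cyclooxygenase, 0.86, and Il1b, the gene of interleukin-1 beta, 0.90. Ccl4 stood at 7.13, 7.76, 4.60 and 16.7 TPM in Aoah tumours, against 5.67, 2.68, 1.56 and 3.03 TPM in Vector tumours, with Vector 1 inside the Aoah range. Socs1 stood at 9.46, 5.54, 6.00 and 9.65 TPM in Aoah tumours, against 4.14, 3.16, 5.09 and 4.22 TPM in Vector tumours. It thus lay higher in every Aoah tumour, as 0.731% of all genes did, with a log2 fold change of 0.73 (limma adjusted p = 0.694). Over both models, Socs1 was called at 1.42 (SE 0.19, limma adjusted p = 0.0189) and Ccl5 at 1.54 (SE 0.24, limma adjusted p = 0.0397). They were 1 of 11 inhibitors and 1 of 17 response targets tested, where 28 of 16556 genes (0.169%) were called. The value of Ccl5 came from B16F10, as its log2 fold change in B16mhgp100 was 0.12 (SE 0.31, limma adjusted p = 0.851). The difference between the models was -2.84 (SE 0.49) for Ccl5 and did not pass either (limma adjusted p = 0.119).

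The medians of the other B16mhgp100 lists were 0.15 over 6 genes of lipopolysaccharide recognition, -0.10 over 7 toll-like receptors and chaperones, -0.29 over 20 adaptors, kinases and transcription factors, and 0.03 over 11 inhibitors. Lbp had a log2 fold change of 1.52, from 54.9 TPM in Aoah 2 to 0.59 TPM in Aoah 3, Ly86, the partner of Cd180, 0.79 and Bpi, a lipopolysaccharide-binding protein, -0.47. Unc93b1 had 0.52, and the chaperones Cnpy3 and Hsp90b1 had -0.32 and -0.11. Tab1 and Tab3, partners of the kinase TAK1, had -0.67 and -0.60, and Irf3, the factor downstream of TRIF, had 0.41. Sigirr, an inhibitory receptor, had -0.42 and Nfkbia 0.36. Tab1, Tab3, Cnpy3 and Sigirr were lowest in Aoah 4, and Irf3 and Nfkbia highest.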

How the data were processed

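Expression came from 12 bulk tumour libraries, grouped by the sample titles. The authors deposited log2 values that gave TPM after removal of a pseudocount of 1, and per the submitters' processing notes RSEM and build mm39 were used, with versions not given in the sources used here. RSEM shares reads between near-identical genes, and the kit is not stated to keep strand. The authors deposited a table per model from DESeq2, per the submitters' processing notes, with the mean normalised count (a signal per gene), log2 fold change, a test score, p-value and adjusted p-value. Its identifiers were matched to symbols by identifier.

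TPM was tested as log2(TPM + 1), which understates changes of low genes, with limma 3.58.1 in R 4.3.3 (intensity trend, 2-sided, Benjamini-Hochberg adjustment over all genes, threshold 0.05). A gene was tested if at least 1 TPM was reached in a number of libraries equal to the size of the smaller group. The models were fitted separately, and the difference and mean effect over all 12. Single values had exact permutation tests. Relations were Pearson's r and Spearman's rho with 100000 resamples over 12 tumours, otherwise exact, in SciPy 1.17.1, adjusted within each set of 9 or 10 relations. The code was tested on simulated data. Alternatives were a pseudocount of 0.1, no filter, median-of-ratios scaling, array weights, no trend, a 12-library fit, a replicate block and each library left out.

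The members and lists were chosen with earlier results of these data known. All 10 members are named, the 3 genes of each pathway list with the smallest p in each model, and the 5 genes most like Aoah, Tlr4 and Tlr3. RefSeq windows are on GRCm38.p6, and the values carry no coordinates. A deposited repertoire table was not used here.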

Additional observations from a re-analysis of the deposited data

Results flagged for a closer look

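In groups of 4 tumours, a tumour whose gap to its nearest neighbour took up more than 0.829 of the group's range, the 95% critical value of Dixon's test, was looked for in 20 groups of values. Chance marks about 1 in 20 such groups. Tlr3 in B16mhgp100 Aoah tumours met this through Aoah 4, at a ratio of 0.859 (6.49 TPM, against at least 16.8 TPM in the other 3). Tlr13 in B16mhgp100 Vector tumours met it through Vector 2, at 0.918 (1.58 TPM, against at least 5.47 TPM in the other 3). Vector 2 also had the lowest macrophage marker sum of the Vector tumours, at 279 TPM, and its part in the Tlr13 level was not tested.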

How the results depend on the processing

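Of 1163 alternative values computed over all results, 999 were unchanged. Single values among these kept both direction and side of the threshold, and counts of members stayed equal to the main count or within a set ratio of it. Of the rest, 66 lost a call, 24 gained one, 40 changed sign and 34 were counts that moved. Causes were not tested, apart from filters and left-out tumours, which by construction change the genes or samples tested.

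In B16F10 the members called by limma were 1, against 0 with no filter on low values, 0 in the fit of all 12 libraries, and 1 to 5 with a tumour left out, in fits that called 1.67% to 23% of all genes. The fold change there ranged from -0.58 to 0.24 for Tlr4 and from -0.0384 to 0.61 for Cd14. For the mean effect, 1 member was called with median-of-ratios scaling and 1 with array weights (Aoah in both, at 2.81 and 3.03), 2 without both doubted libraries (14% of all genes called), and 0 to 2 with a tumour left out (0.00611% to 4.35% of all genes).

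In B16mhgp100, array weights gave log2 fold changes of 0.30 for Tlr4, 0.20 for Tlr3, -0.0298 for Tlr7 and 0.0363 for Myd88, median-of-ratios scaling gave 0.10 for Tlr3 and 0.0223 for Myd88, and a pseudocount of 0.1 gave -0.00163 for Ticam1. With a tumour left out, the ranges were -0.43 to 0.20 for Tlr4, -0.0493 to 0.56 for Tlr2, -0.23 to 0.25 for Tlr3, -0.28 to 0.42 for Tlr7, -0.62 to 0.0946 for Tlr13, -0.54 to 0.26 for Myd88 and -0.17 to 0.39 for Ticam1.

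Members related to Aoah over 12 tumours numbered 1 with a pseudocount of 0.1 (Tlr2, r = 0.767), and with a tumour left out 0 to 1 over 12 tumours, 0 to 2 over the 8 B16mhgp100 tumours and 0 to 1 within groups. Without the 2 tumours farthest from the median, r over 8 tumours was -0.112 for Cd14, -0.0198 for Tlr2, -0.341 for Tlr7 and -0.254 for Tlr13. For Ly96 it was -0.357 within groups with median-of-ratios scaling, and with a tumour left out -0.138 to 0.395 over 12 tumours, -0.00535 to 0.625 over 8 and -0.206 to 0.586 within groups.

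Without the 2 tumours farthest from the median score, members related to the macrophage score numbered 0 over 8 tumours, 0 within groups and 0 over the 6 Vector tumours. With a tumour left out they numbered 1 to 5 over 8 tumours, 0 to 5 within groups and 0 to 2 over Vector tumours. Fewer tumours also leave fewer arrangements for the exact tests, which raises the smallest p they can give. Over 12 tumours, r of Tlr4 with the score was -0.0786 with median-of-ratios scaling, -0.234 without the 2 farthest tumours and -0.222 to 0.312 with a tumour left out, and that of Tlr3 -0.225 to 0.135. Tlr13 was at 0.654 with median-of-ratios scaling and did not pass.

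Replicate numbers are shared between groups, but same-numbered tumours did not deviate together (correlations of -0.239, -0.212, 0.0684 and -0.0743 in B16mhgp100 and -0.0841 in B16F10), and no tumour was closest to its own number. With the number as a replicate block, limma called 0 members in B16mhgp100, 1 in B16F10, where calls over all genes came to 496 higher and 269 lower, 0 for the difference and 0 for the mean effect. TPM keeps no depth, so counting error could not be separated from variation between tumours, and groups of 2 limit every B16F10 value.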
